A study of Mus musculus with 18 samples.

Results

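The genes described here are 47 transcripts of T cells, natural killer (NK) cells and their checkpoint receptors, from a table of 54752 genes counted in mouse liver. They were named by gene symbol, with earlier results of these data known. All 47 symbols were found. The table holds 18 livers of male C57BL/6 mice, 6 per group, sampled in week 22 of a study that started with 45 mice aged 6 weeks. CCl4_PTH mice were given Pien Tze Huang (PTH, spelled PZH in places), a traditional Chinese medicine, by gavage once a day and carbon tetrachloride (CCl4), a solvent that injures hepatocytes, by injection into the abdomen 2 times per week. CCl4 mice had the same CCl4 injections and water by gavage, and control mice had injections of olive oil and water by gavage. The labels call the CCl4 treatment a liver cancer model, and neither the tumour content of a sample nor the time between its last injection and its removal is stated in those labels. No group received PTH without CCl4, so every value of PTH is one within CCl4-treated livers.

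A T cell recognises antigen through a receptor of alpha and beta chains, which reads peptide on MHC molecules, or of gamma and delta chains. The signal passes on through the CD3 chains and the kinases Lck and Zap70 to the adaptor Lat. CD4 or CD8 and co-stimulatory receptors such as CD28 set the strength of the response, while checkpoint receptors such as PD-1 and CTLA-4 dampen it, above all on cells that have been stimulated for a long time. The liver is rich in CD8 T cells and NK cells, which kill through perforin and granzymes or the Fas ligand, and chronic liver injury is known to draw further lymphocytes into the tissue.

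Total counts were 67.2 M to 118.9 M per library, of which 35.6 M to 79.7 M lay outside ribosomal RNA loci. Levels are given as CPM (counts divided by edgeR's effective library size), and where 3 values stand for a group they are its lowest, median and highest library. One count was worth between 0.00670 and 0.0195 CPM, so many of these genes rest on few reads in a liver without injury, and the number of counts limits their precision. The 47 genes together held 2287 to 7878 counts per library in CCl4_PTH livers, 2945 to 15986 in CCl4 livers and 1151 to 1600 in control livers. Alb, the hepatocyte albumin gene, was present at 23673, 25069 and 31622 CPM in CCl4_PTH, 11739.5, 24878 and 36148 CPM in CCl4 and 28929.9, 35521 and 42895 CPM in control livers, as for liver tissue. The T cell chain Cd3e was counted in all 18 libraries. Of the 47 genes, 22 had at least 1 count in every library, and 25 had a library without any. The expression filter kept 45 of the 47 and left out Gzmk and Ifng. Only 11 of the 47 lay above the filter's value of 0.121 CPM in all 6 control libraries, and the other 36 could pass it only with the help of injured livers, so the counts of genes called against control below are a description and not support for a rise of lymphocyte genes in general. In bulk tissue, fewer cells of a type and less RNA per cell cannot be told apart.

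A pair of CCl4 libraries stood apart from the rest for these genes. The summed level of the 47 genes was 154.8 CPM in CCl4 4 and 109.1 CPM in CCl4 7, against 34.2 to 52.0 CPM in the other 4 CCl4 livers. It was 26.8 to 52.8 CPM over the 6 CCl4_PTH livers and 16.7 to 24.4 CPM over the 6 control livers. CCl4 4 and CCl4 7 were both above the other 4 CCl4 libraries in 41 of the 47 genes, the exceptions being Trdc, Zap70, Tcf7, Gzma, Klrb1c and Ncr1. CCl4 4 alone was the highest CCl4 library in 42 genes and held 36.3% of the group's summed level, and CCl4 7 held 25.6%. Among CCl4_PTH livers, CCl4_PTH 2 was highest in 29 genes and CCl4_PTH 1 lowest in 29. Counts of calls, and values whose call or sign rests on CCl4 4 and CCl4 7, are also given without both, a choice made after the data were seen.

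**Figure D1:**
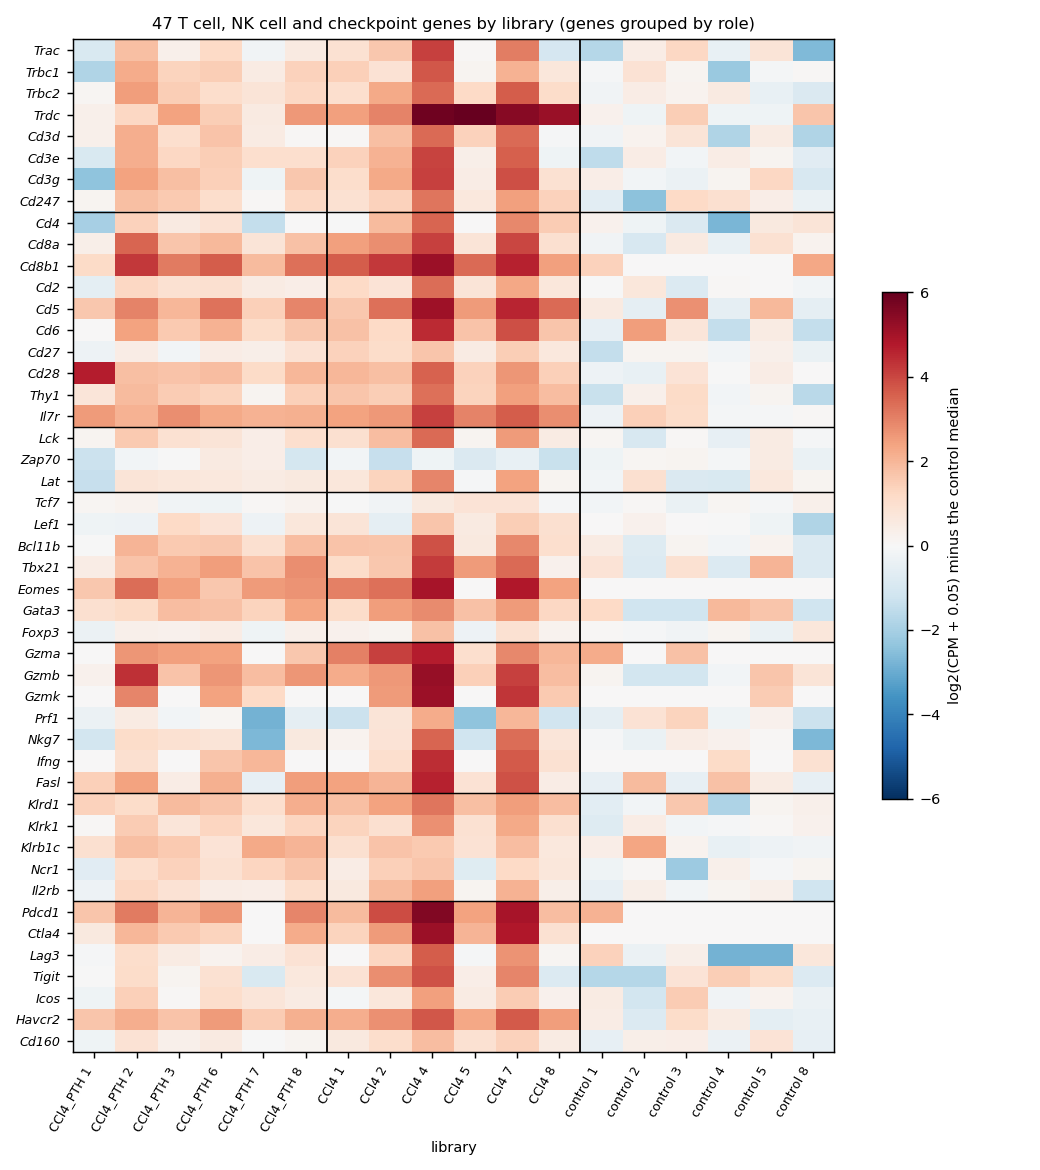
Heat map of the 47 genes (rows, grouped by role) in the 18 libraries (columns), coloured by log2(CPM + 0.05) minus the gene's control median. CCl4 4 and CCl4 7 are dark red across most rows, Trdc is also high in CCl4 5 and CCl4 8, and Cd28 stands out in CCl4_PTH 1.

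The same 2 libraries were also the highest CCl4 libraries for macrophage, dendritic cell and cholangiocyte markers. Their summed macrophage and Kupffer cell markers (15 genes) came to 1577 CPM in CCl4 4 and 1369 CPM in CCl4 7, in a CCl4 range of 587 to 1577 CPM; the range was 450 to 885 CPM in CCl4_PTH and 199 to 316 CPM in control livers. Dendritic cell markers (9 genes) spanned 21.2 to 55.6 CPM in CCl4_PTH, 40.3 to 85.8 CPM in CCl4 and 28.6 to 32.4 CPM in control livers, with CCl4 4 highest. Hepatocyte markers (11 genes) spanned 44243 to 69792 CPM in CCl4_PTH, 25624 to 60443 CPM in CCl4 and 58930 to 72921 CPM in control livers, and CCl4 4 was the lowest of all. B cell and plasma cell markers (13 genes) did not follow this order, with 44.9 to 269 CPM in CCl4_PTH, 50.5 to 107 CPM in CCl4 and 14.5 to 40.0 CPM in control livers, and CCl4 7 was the lowest CCl4 library. Neutrophil markers (9 genes) spanned 12.7 to 201 CPM in CCl4_PTH, 14.4 to 107 CPM in CCl4 and 1.78 to 4.17 CPM in control livers, where Ly6g and Mmp8 were at 0. The 201 CPM belonged to CCl4_PTH 1, with the next CCl4_PTH liver at 24.0 CPM, and the 107 CPM to CCl4 2. CCl4_PTH 1 was also the highest CCl4_PTH library for the fibroblast and stellate cell markers and the cholangiocyte markers. For cholangiocyte markers, CCl4 4 and CCl4 7 held 183 and 185 CPM, and the other CCl4 livers 100 to 126 CPM. In CCl4_PTH, CCl4 and control livers the ranges were 569 to 1110 CPM, 585 to 1005 CPM and 269.5 to 335 CPM for fibroblast and stellate cell markers (11 genes), 67.4 to 262 CPM, 100 to 185 CPM and 22.3 to 36.1 CPM for cholangiocyte markers (7 genes), and 273 to 390 CPM, 312 to 340.01 CPM and 271 to 314 CPM for endothelial markers (9 genes). The part of these other cells in the lymphocyte results was not tested.

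**Figure D2:**
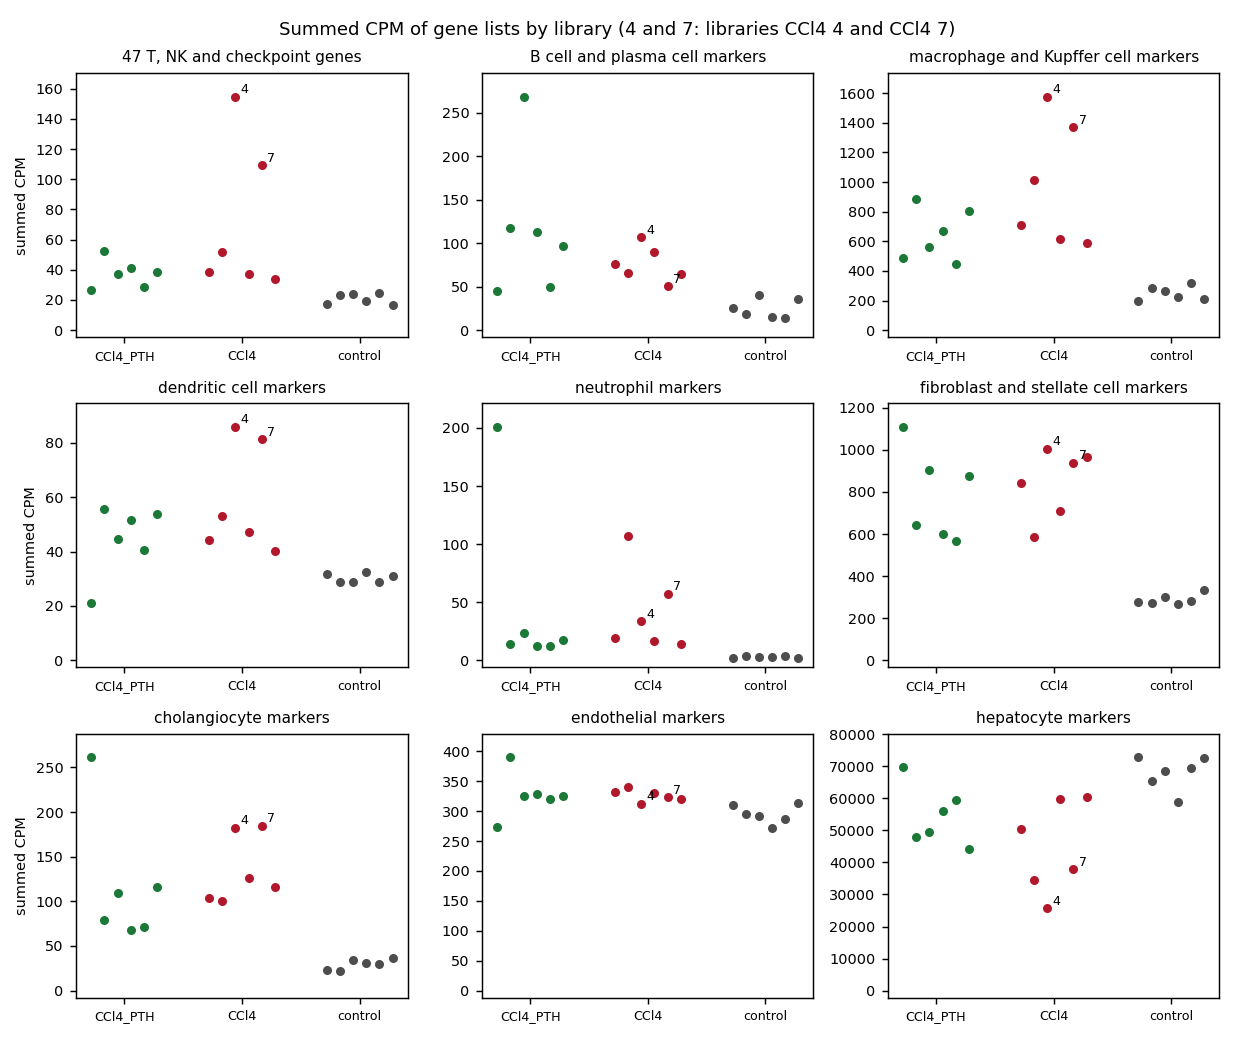
Summed CPM (y axes, linear, starting at 0) of the 47 genes and of 8 lists of markers of other cells, 1 point per library, with CCl4_PTH left, CCl4 in the middle and control right. The points marked 4 and 7 are CCl4 4 and CCl4 7, which are the highest CCl4 libraries for the 47 genes, for macrophages, for dendritic cells and for cholangiocytes.

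In CCl4 against control livers, 36 of the 45 genes tested were higher, beside 26.3% of all 21840 genes tested, and none was lower, beside 21.2% (47.4% in either direction). At an unadjusted p under 0.05, 39 of the 45 were higher and 1 lower in edgeR; DESeq2 and limma voom each called 1 lower, Zap70. The median log2 fold change of the 45 was 2.42, against 0.051 over all genes tested. Every CCl4 liver lay above every control for 13 of the 47 genes, beside 14.8% of all genes tested, and below for 0, beside 11.3%. Without CCl4 4 and CCl4 7, 18 of the 45 genes were higher, beside 19.9% of all genes, with a median of 1.20. Without CCl4 4 alone the number was 24, and without CCl4 7 alone it was 29. The shares of all genes in these 2 fits are not given here, so both numbers are a description.

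In CCl4_PTH against CCl4 livers, 2 of the 45 genes were lower, Trdc and Cd27, beside 4.95% of all genes tested, and none was higher, beside 7.1% (12.1% in either direction). The share is close to the background. In edgeR, 18 of the 45 were lower and 0 higher at an unadjusted p under 0.05; DESeq2 called 10 lower and limma voom 4, and both called 0 higher. Groups were apart for 0 of the 47 genes in either direction, beside 2.2% of all genes tested higher and 1.87% lower. The log2 fold change was below 0 in 41 of 45 genes, with a median of -1.01, against -0.03 over all genes tested. Without CCl4 4 and CCl4 7, 24 of 45 were below 0, the median was -0.08, and Trdc alone was called lower.

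In CCl4_PTH against control livers, 13 of the 45 genes were higher, beside 17.4% of all genes tested, and none was lower, beside 10.3% (27.7% in either direction), nor lower at an unadjusted p under 0.05 or in DESeq2 or limma voom (0 in each). The 13 were Trbc2, Cd8a, Cd8b1, Cd28, Thy1, Il7r, Bcl11b, Eomes, Gzmb, Klrd1, Klrk1, Ctla4 and Havcr2. Every CCl4_PTH liver lay above every control for 4 of the 47, beside 9.79% of all genes tested, and below for 0, beside 4.67%. The median log2 fold change over the 45 was 1.30, against 0.037 over all genes. Without controls 1 and 8, left out together because they had stood apart in lipid genes in earlier work on these data, the number was 6. The number was 15 without CCl4 4 and CCl4 7, with Cd3e and Lck added. CCl4_PTH against CCl4 shares its CCl4 samples with CCl4 against control, and its CCl4_PTH samples with CCl4_PTH against control, so the 3 comparisons are not independent. Group medians stood in the order CCl4, CCl4_PTH, control (high to low) for 40 of the 47 genes and CCl4_PTH, CCl4, control for 5, and the control median was not the lowest for Zap70 and Prf1. These CCl4 medians include CCl4 4 and CCl4 7, and the order was not counted without them or over all genes. The log2 fold change in CCl4_PTH against CCl4 was below 0 in 41 of 45 genes with them and in 24 without.

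**Figure D3:**
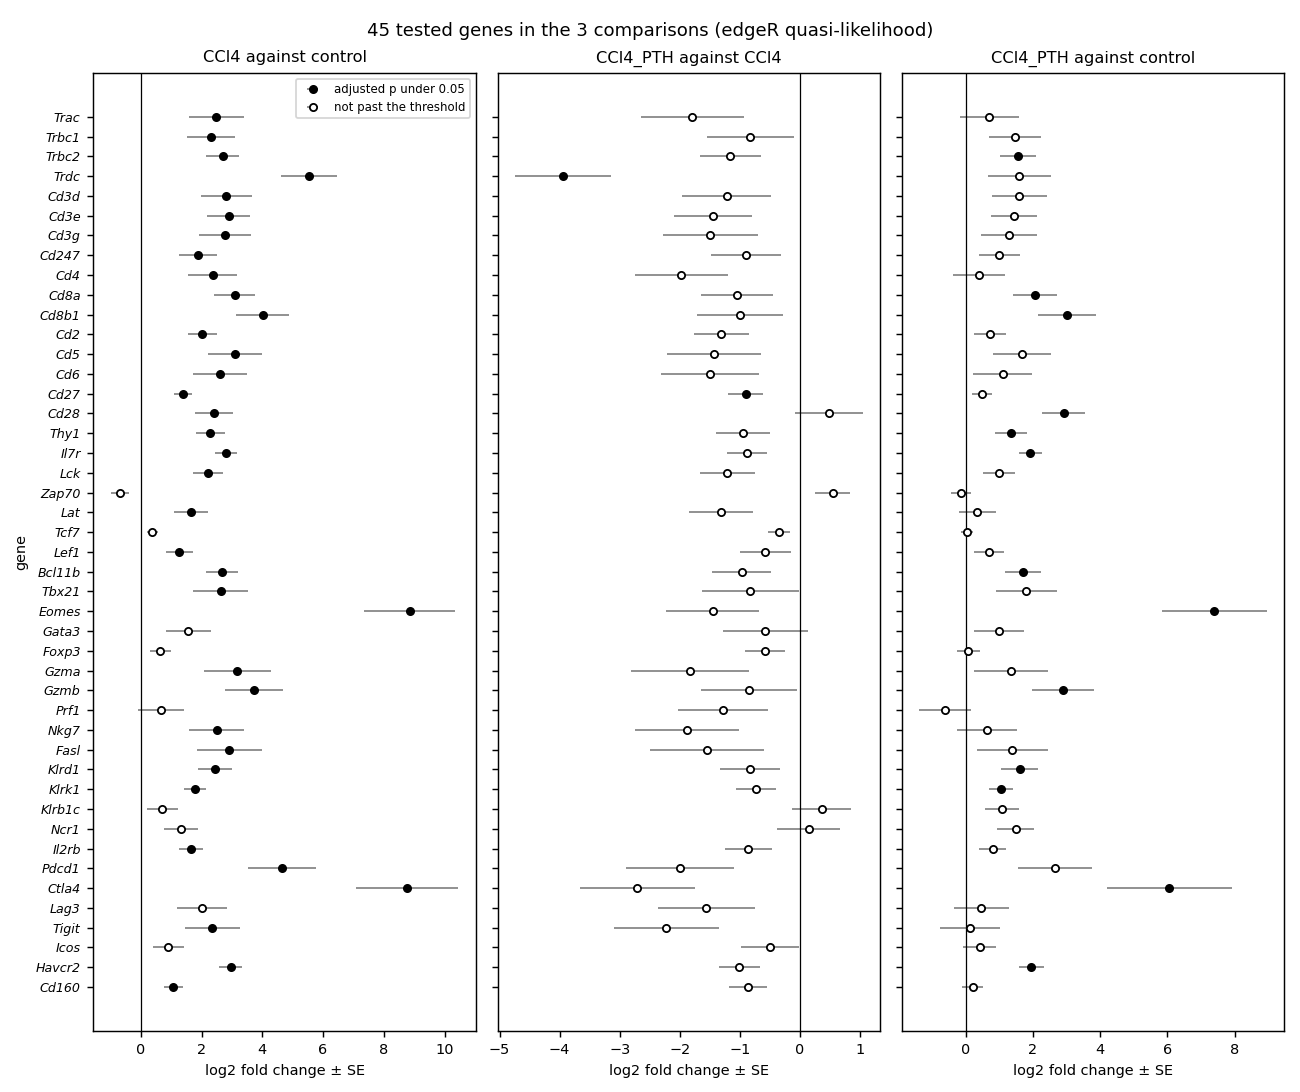
Log2 fold change ± SE (x axes) of the 45 tested genes (rows) in the 3 comparisons; filled points passed an adjusted p under 0.05. Filled points number 36, 2 and 13, and nearly all CCl4_PTH against CCl4 points lie left of 0.

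The T cell receptor and CD3 genes were all higher in CCl4 than in control livers, 8 of 8, with log2 fold changes of 1.89 to 5.55, beside 26.3% of all genes tested. Of the 8, 2 were called without CCl4 4 and CCl4 7, Trbc2 and Trdc, beside 19.9% of all genes. Only Trbc2 passed in CCl4_PTH against control (1 of 8, higher, beside 17.4% of all genes tested). In CCl4_PTH against CCl4 only Trdc passed (1 of 8, lower, beside 4.95%). Cd3e (chr9:44998740-45009627, minus strand, GRCm38), a signalling chain of the receptor whose exons overlap Gm48719 on the other strand, was at 0.187, 0.925 and 1.94 CPM in CCl4_PTH livers, 0.322, 1.48 and 7.29 CPM in CCl4 livers and 0.104, 0.397 and 0.552 CPM in control livers. CCl4 4 and CCl4 7 were the highest, 4 of 6 CCl4 livers lay above every control, and the ranges overlapped. The log2 fold change of Cd3e was 2.89 ± 0.71 (SE, adjusted p = 0.00252) in CCl4 against control livers, and 1.35 (adjusted p = 0.0691) without CCl4 4 and CCl4 7. It was -1.45 ± 0.65 (SE, adjusted p = 0.156) in CCl4_PTH against CCl4, and 0.08 without the same libraries. CCl4_PTH against control gave 1.44 ± 0.68 (SE, adjusted p = 0.128).

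Trac, Trbc1 and Trbc2 code for the constant parts of the alpha and beta chains. Trbc2 was at 0.272, 0.6203 and 1.66 CPM in CCl4_PTH livers, 0.557, 1.01 and 3.67 CPM in CCl4 livers and 0.116, 0.251 and 0.383 CPM in control livers, and no CCl4 liver overlapped the controls. Its log2 fold change was 2.698 ± 0.55 (SE, adjusted p = 0.000509) in CCl4 against control and 1.54 ± 0.54 (SE, adjusted p = 0.0387) in CCl4_PTH against control, where 5 of 6 CCl4_PTH livers lay above every control; the call in CCl4_PTH against control was lost when any one of control 1, control 3, control 5, control 8, CCl4_PTH 2, CCl4_PTH 3 or CCl4_PTH 8 was left out. Trac had a log2 fold change of 2.49 ± 0.91 (SE, adjusted p = 0.0304) in CCl4 against control, and 0.65 without CCl4 4 and CCl4 7; leaving out CCl4 4, CCl4 7, control 1, control 4 or control 8 alone also ended its call, and without CCl4 4 the value was 1.63. Trbc1 gave 2.299 ± 0.79 (SE, adjusted p = 0.0222), with a call that did not hold without CCl4 4 (1.404) or without CCl4 4 and CCl4 7 together (0.998 (adjusted p = 0.324)). Cd3d, Cd3g and Cd247, the remaining signalling chains, gave log2 fold changes of 2.81, 2.79 and 1.89 in CCl4 against control livers, all called, and none of them was called without CCl4 4 and CCl4 7, at 1.38, 1.26 and 0.98.

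The beta chain genes are near copies. Trbc1 (chr6:41538218-41539881) and Trbc2 (chr6:41546730-41548352, both plus strand, GRCm38) share 95.6% of the 518 bases of their coding sequence, with 23 differences and an unbroken identical run of 259 bases, so reads from one could be counted for the other. Their most different stretch of 60 bases, coding bases 438 to 497 of the GENCODE M21 transcripts, is shown with the 10 differing bases in capitals, because only such stretches let reads tell the 2 genes apart.
Trbc1: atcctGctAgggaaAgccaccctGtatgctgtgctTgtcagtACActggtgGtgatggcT
Trbc2: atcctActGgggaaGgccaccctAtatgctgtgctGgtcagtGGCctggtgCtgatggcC
The counts of the 2 genes are therefore uncertain as a split. In CCl4_PTH against CCl4, where neither was called, the log2 fold changes were -0.83 for Trbc1 and -1.15 for Trbc2 with all libraries, and 0.46 and -0.09 without CCl4 4 and CCl4 7.

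Trdc (chr14:54142851-54148868, plus strand, GRCm38), the constant region of the delta chain, was the gene of the 45 with the lowest log2 fold change in CCl4_PTH against CCl4. It was at 0.0255, 0.105 and 0.315 CPM in CCl4_PTH livers, 0.285, 2.398 and 4.54 CPM in CCl4 livers and 0, 0.0116 and 0.145 CPM in control livers. In counts, the CCl4 livers held 23, 33, 352, 356, 285 and 202 (CCl4 1, 2, 4, 5, 7 and 8), the CCl4_PTH livers 3, 14, 25, 15, 3 and 37 (CCl4_PTH 1, 2, 3, 6, 7 and 8), and the control livers 2, 0, 6, 0, 0 and 10 (control 1, 2, 3, 4, 5 and 8). In CCl4, 4 libraries were high and CCl4 1 and CCl4 2 low, 5 of 6 CCl4_PTH livers lay below every CCl4 liver, and the ranges overlapped. Trdc gave a log2 fold change of -3.95 ± 0.796 (SE, adjusted p = 0.00527) in CCl4_PTH against CCl4, and -3.67 (adjusted p = 0.0345) without CCl4 4 and CCl4 7. In CCl4 against control it was 5.55 ± 0.93 (SE, adjusted p = 8.7e-05), with every CCl4 liver above every control, and in CCl4_PTH against control 1.598 ± 0.93 (SE, adjusted p = 0.216). Without control 8, CCl4 against control gave 6.35. The library with the highest Trdc, CCl4 5, was the lowest CCl4 library for 21 of the 47 genes and had 0.217 CPM of Trbc1, so Trdc did not follow the alpha-beta and CD3 genes across livers. Its neighbour Trdj1, a joining segment of the delta locus, had 13, 8, 19 and 7 counts in CCl4 4, 5, 7 and 8, and at most 2 in the other 14 libraries. Trdv4, a variable segment of the delta chain, had 8, 10 and 1 counts in CCl4 1, 4 and 7 and 0 in CCl4 2, 5 and 8. It had 5, 19 and 24 counts in CCl4_PTH 2, 3 and 8, so Trdv4 did not follow Trdc. The exons of Trdc overlap Gm43434 and Trdv5 on the other strand, which had at most 13 and 4 counts in any library. The counting's use of strand is not stated in the labels, so reads of the 2 strands cannot be told apart.

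Co-receptors, adhesion molecules and co-stimulatory receptors were higher in CCl4 than in control livers in 10 of 10 cases, beside 26.3% of all genes tested. Without CCl4 4 and CCl4 7 the number was 7 of 10, beside the lower share of all genes given above for that fit. In CCl4_PTH against control livers 5 of 10 were higher, beside 17.4% of all genes tested. Cd4 (chr6:124864692-124888221, minus strand), the co-receptor for MHC class II, was at 0.0341, 0.365 and 0.831 CPM in CCl4_PTH livers, 0.285, 1.07 and 3.74 CPM in CCl4 livers and 0, 0.294 and 0.521 CPM in control livers. CCl4 4 and CCl4 7 were highest, and all 3 ranges overlapped. Its log2 fold change was 2.37 ± 0.798 (SE, adjusted p = 0.0204) in CCl4 against control, a call lost without CCl4 4 alone, and 1.23 without CCl4 4 and CCl4 7. It was -1.97 ± 0.77 (SE, adjusted p = 0.102) in CCl4_PTH against CCl4, where DESeq2 called it lower, and -0.84 without CCl4 4 and CCl4 7. CCl4_PTH against control gave 0.39 ± 0.78 (SE, adjusted p = 0.753).

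Cd8a (chr6:71373427-71379173, plus strand), the chain that carries the MHC class I co-receptor, was at 0.349, 0.989 and 3.46 CPM in CCl4_PTH livers, 0.497, 1.91 and 5.44 CPM in CCl4 livers and 0.114, 0.269 and 0.5498 CPM in control livers. CCl4_PTH 2 stood above the other CCl4_PTH livers, and 5 of 6 CCl4 livers and 4 of 6 CCl4_PTH livers lay above every control. Cd8a gave a log2 fold change of 3.09 ± 0.67 (SE, adjusted p = 0.000912) in CCl4 against control and 2.004 without CCl4 4 and CCl4 7, still called. For Cd8a, CCl4_PTH against CCl4 gave -1.04 ± 0.598 (SE, adjusted p = 0.28), and 0.04 without CCl4 4 and CCl4 7. In CCl4_PTH against control it was 2.05 ± 0.65 (SE, adjusted p = 0.0248), a call that was lost without control 2, control 4 or CCl4_PTH 2, the last giving 1.39. The partner chain Cd8b1 gave 4.01 ± 0.87 (SE, adjusted p = 0.000915) in CCl4 against control and 3.02 ± 0.86 (SE, adjusted p = 0.0136) in CCl4_PTH against control; 4 of the 6 control libraries had 0 counts of it, and without control 8 the values were 5.26 and 4.29.

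Cd27 (chr6:125232622-125237010, minus strand), a co-stimulatory receptor of the TNF receptor family, was the other gene called lower in CCl4_PTH against CCl4. Its levels were 0.613, 1.02 and 1.405 CPM in CCl4_PTH livers, 1.096, 1.89 and 2.54 CPM in CCl4 livers and 0.255, 0.765 and 0.962 CPM in control livers. Of the CCl4_PTH livers 5 of 6 lay below every CCl4 liver, every CCl4 liver lay above every control, and CCl4_PTH overlapped both. Cd27 gave a log2 fold change of -0.905 ± 0.29 (SE, adjusted p = 0.0494) in CCl4_PTH against CCl4, 1.39 ± 0.3004 (SE, adjusted p = 0.00087) in CCl4 against control and 0.48 ± 0.298 (SE, adjusted p = 0.246) in CCl4_PTH against control. The call in CCl4_PTH against CCl4 lay at the edge of the threshold: it was lost when any one of CCl4 1, CCl4 2, CCl4 4, CCl4 7, CCl4_PTH 1, CCl4_PTH 2, CCl4_PTH 3, CCl4_PTH 6 or CCl4_PTH 7 was left out, and without CCl4 4 and CCl4 7 together the value was -0.65 (adjusted p = 0.304). The exons of Cd27 hold the microRNA gene Mir8113.

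Il7r, the receptor for the survival cytokine IL-7, had the smallest p of this role in CCl4 against control. It was at 2.103, 2.31 and 3.52 CPM in CCl4_PTH livers, 2.65, 3.77 and 8.67 CPM in CCl4 livers and 0.359, 0.4598 and 1.33 CPM in control livers, and neither injured group overlapped the controls. Il7r gave a log2 fold change of 2.803 ± 0.36 (SE, adjusted p = 5.19e-06) in CCl4 against control and 1.92 ± 0.35 (SE, adjusted p = 0.000545) in CCl4_PTH against control. For Il7r, CCl4_PTH against CCl4 gave -0.88 ± 0.33 (SE, adjusted p = 0.0859), where DESeq2 and limma voom called it lower, and -0.37 (adjusted p = 0.601) without CCl4 4 and CCl4 7. Thy1, a surface protein of T cells that fibroblasts also carry, gave 2.296 ± 0.48 (SE, adjusted p = 0.000639) in CCl4 against control and 1.35 ± 0.47 (SE, adjusted p = 0.0389) in CCl4_PTH against control, with the CCl4_PTH call lost without any one of 9 libraries (control 1, 2, 4, 5 and 8, CCl4_PTH 2, 3, 6 and 8).

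Cd28 (chr1:60716800-60773359, plus strand), the main co-stimulatory receptor of T cells, was at 0.554, 0.927 and 7.07 CPM in CCl4_PTH livers, 0.663, 0.979 and 3.15 CPM in CCl4 livers and 0.152, 0.223 and 0.4297 CPM in control livers. CCl4_PTH 1 held 7.07 CPM from 830 counts, while the other 5 CCl4_PTH livers spanned 0.554 to 1.05 CPM; the neighbouring receptors Ctla4 and Icos were not raised in CCl4_PTH 1, where Icos was lowest. The log2 fold change of Cd28 in CCl4_PTH against control was 2.91 ± 0.63 (SE, adjusted p = 0.00225), and 1.76 without CCl4_PTH 1. In CCl4 against control it was 2.42 ± 0.62 (SE, adjusted p = 0.00353), and in CCl4_PTH against CCl4 0.49 ± 0.56 (SE, adjusted p = 0.635). These were 1.695 (adjusted p = 0.0401) and 1.196 (adjusted p = 0.326) without CCl4 4 and CCl4 7. Cd2, Cd5 and Cd6 completed the role, with log2 fold changes of 2.03, 3.11 and 2.60 in CCl4 against control, all called. Without CCl4 4 and CCl4 7 the values were 0.94, 2.02 and 1.03, of which only Cd2 remained called. Single libraries mattered too: Cd2 gave 1.42 without CCl4 4, Cd5 4.08 without control 3, and Cd6 1.96 without CCl4 4 and 3.89 without control 2, with its call lost without CCl4 4 or CCl4 7.

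**Figure D4:**
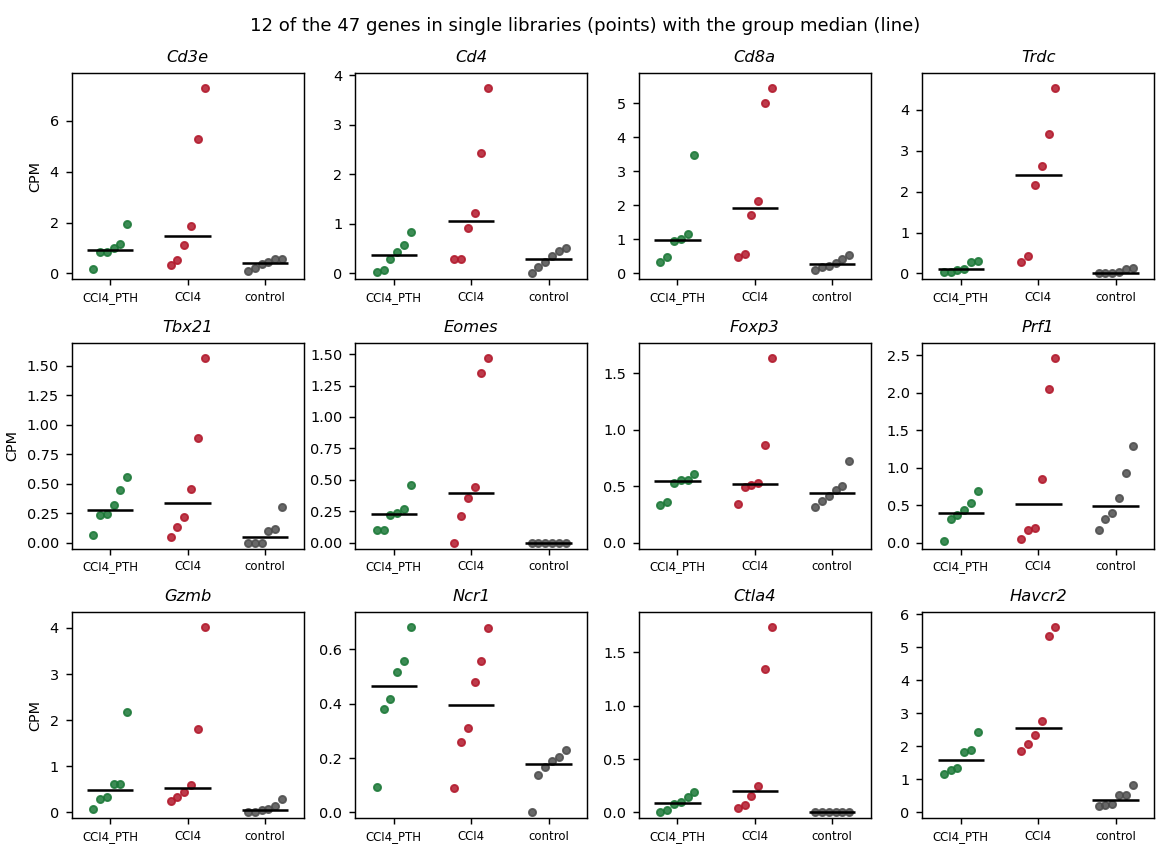
Levels in CPM (y axes, linear, from 0) of 12 of the 47 genes, 1 point per library and a line at the group median, with CCl4_PTH left, CCl4 in the middle and control right. In most panels 2 CCl4 points lie far above the rest; Trdc has 4 high CCl4 points, and Eomes and Ctla4 have all 6 control points at 0.

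Of the 3 proximal signalling genes, Lck and Lat were higher in CCl4 than in control livers, beside 26.3% of all genes tested. Zap70 was not called. Lck, the kinase that first phosphorylates the CD3 chains, was at 0.6896, 1.13 and 1.88 CPM in CCl4_PTH livers, 0.701, 1.798 and 7.02 CPM in CCl4 livers and 0.286, 0.612 and 0.886 CPM in control livers. Its highest libraries were CCl4 4 and CCl4 7, and 5 of 6 CCl4 livers lay above every control. Its log2 fold change was 2.21 ± 0.48 (SE, adjusted p = 0.000967) in CCl4 against control, 1.14 without CCl4 4 and CCl4 7 (still called), -1.21 ± 0.46 (SE, adjusted p = 0.0918) in CCl4_PTH against CCl4 and 1.0003 ± 0.47 (SE, adjusted p = 0.125) in CCl4_PTH against control. In CCl4_PTH against CCl4, Lck was called lower by DESeq2, and by edgeR when CCl4 5 or CCl4 8 was left out. It gave -0.16 (adjusted p = 0.893) there without CCl4 4 and CCl4 7. In CCl4_PTH against control it was then called, at 0.99 (adjusted p = 0.0337). Lat, the adaptor that gathers the signal, gave 1.66 ± 0.55 (SE, adjusted p = 0.0183) in CCl4 against control and lost its call without CCl4 4 or CCl4 7. It gave 0.54 (adjusted p = 0.429) without both.

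Zap70, the kinase that binds the phosphorylated CD3 chains, had the opposite sign. Its levels were 1.56, 3.63 and 5.64 CPM in CCl4_PTH livers, 1.46, 2.47 and 3.501 CPM in CCl4 livers and 2.94, 3.88 and 5.38 CPM in control livers. Of the CCl4 livers, 4 of 6 lay below every control, and the 3 ranges overlapped. Zap70 gave a log2 fold change of -0.69 ± 0.298 (SE, adjusted p = 0.0643) in CCl4 against control, past the threshold in DESeq2, in limma voom, in a fit of these 2 groups alone, and without control 8 or CCl4 1. It was 0.54 ± 0.297 (SE, adjusted p = 0.249) in CCl4_PTH against CCl4 and -0.15 ± 0.295 (SE, adjusted p = 0.758) in CCl4_PTH against control. Per kilobase of exon, the mean Zap70 level in control livers was 1.31 CPM, the highest of the 47 genes, against 0.0912 CPM per kilobase for Cd3e in the same livers. Tcf7 was next at 1.26 CPM per kilobase, and Il2rb followed at 0.38 CPM per kilobase. In CCl4 livers the highest mean level per kilobase was that of Trbc2, 2.37 CPM, and Zap70 stood at rank 14.

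Of the lymphocyte transcription factors, 4 of 7 were higher in CCl4 than in control livers (Lef1, Bcl11b, Tbx21 and Eomes), beside 26.3% of all genes tested. Of these, Bcl11b and Eomes were called without CCl4 4 and CCl4 7. In CCl4_PTH against control livers, 2 of 7 were higher (Bcl11b and Eomes), beside 17.4% of all genes tested. Eomes, which with T-bet drives cytotoxic T cells and NK cells, had no count in any of the 6 control livers. It was at 0.101, 0.231 and 0.462 CPM in CCl4_PTH livers and 0, 0.3998 and 1.47 CPM in CCl4 livers, with CCl4 5 at 0. Against a floor of 3 counts over the control group, the mean Eomes level was at least 83.0-fold higher in CCl4 (381 counts, adjusted p = 0.000241) and at least 30.3-fold higher in CCl4_PTH livers (165 counts, adjusted p = 0.0033), which covers counting error only. In the CCl4 mean, CCl4 4 and CCl4 7 held 1.47 and 1.35 CPM, and the other CCl4 livers 0 to 0.441 CPM. The bound is not given without CCl4 4 and CCl4 7, where edgeR still called Eomes higher (adjusted p = 0.00104). All 6 CCl4_PTH livers and 5 of 6 CCl4 livers had counts. For Eomes, CCl4_PTH against CCl4 gave -1.45 ± 0.78 (SE, adjusted p = 0.25), and -0.11 without CCl4 4 and CCl4 7. The exons of Eomes overlap Gm33460 on the other strand.

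Tbx21, which codes for T-bet, the factor behind interferon-gamma production, was at 0.0681, 0.282 and 0.562 CPM in CCl4_PTH livers, 0.0537, 0.3395 and 1.57 CPM in CCl4 livers and 0, 0.0521 and 0.305 CPM in control livers. Levels were highest in CCl4 4 and CCl4 7, and 3 of 6 CCl4 livers lay above every control. Tbx21 gave a log2 fold change of 2.63 ± 0.91 (SE, adjusted p = 0.0224) in CCl4 against control, lost without CCl4 4 at 1.98, 3.56 without control 5, and 1.26 without CCl4 4 and CCl4 7. It was -0.83 ± 0.81 (SE, adjusted p = 0.564) in CCl4_PTH against CCl4 and 1.81 ± 0.898 (SE, adjusted p = 0.145) in CCl4_PTH against control. Its sign in CCl4_PTH against CCl4 turned without CCl4 4 and CCl4 7, to 0.53.

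Bcl11b, required for commitment to the T lineage, gave 2.67 ± 0.54 (SE, adjusted p = 0.00048) in CCl4 against control, with every CCl4 liver above every control (2.06 without CCl4 4 and 1.53 without CCl4 4 and CCl4 7, still called), and 1.71 ± 0.53 (SE, adjusted p = 0.0218) in CCl4_PTH against control, a call lost without control 2. Lef1, a factor of naive T cells, gave 1.27 ± 0.45 (SE, adjusted p = 0.0246) in CCl4 against control, lost without control 8, CCl4 4 or CCl4 7, and 0.77 (adjusted p = 0.225) without CCl4 4 and CCl4 7.

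Tcf7, the partner of Lef1 in naive and memory T cells and also a Wnt effector, was not called. It was at 2.77, 3.53 and 3.88 CPM in CCl4_PTH livers, 2.84, 4.099 and 5.84 CPM in CCl4 livers and 2.48, 3.298 and 4.12 CPM in control livers, with ranges that overlapped throughout. Tcf7 gave a log2 fold change of 0.38 ± 0.19 (SE, adjusted p = 0.102) in CCl4 against control, -0.34 ± 0.19 (SE, adjusted p = 0.248) in CCl4_PTH against CCl4 and 0.04 ± 0.19 (SE, adjusted p = 0.9) in CCl4_PTH against control. Foxp3, the master factor of regulatory T cells, was at 0.332, 0.543 and 0.608 CPM in CCl4_PTH livers, 0.344, 0.524 and 1.64 CPM in CCl4 livers and 0.321, 0.441 and 0.724 CPM in control livers. Except for CCl4 4 and CCl4 7, no CCl4 library lay above the highest control. Foxp3 gave a log2 fold change of 0.65 ± 0.34 (SE, adjusted p = 0.126) in CCl4 against control, -0.58 ± 0.33 (SE, adjusted p = 0.283) in CCl4_PTH against CCl4 and 0.07 ± 0.34 (SE, adjusted p = 0.901) in CCl4_PTH against control. Without CCl4 4 and CCl4 7, CCl4 against control gave -0.0047 and CCl4_PTH against CCl4 gave 0.06. Foxp3 lies among Flicr, Ccdc22, Gm36995 and Ppp1r3f, whose exons overlap its own, so its counts may hold reads of these genes. Gata3, the factor of type 2 helper cells, gave 1.57 ± 0.75 (SE, adjusted p = 0.0914) in CCl4 against control.

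Of the cytotoxic effectors and interferon-gamma, Gzma, Gzmb, Gzmk, Fasl and Ifng were near the detection limit in uninjured liver. Prf1 lay above the filter's value in all 6 control livers, and Nkg7 in 5. Of the 5 genes of this role that were tested, 4 were higher in CCl4 than in control livers (Gzma, Gzmb, Nkg7 and Fasl), beside 26.3% of all genes tested. In CCl4_PTH against control livers 1 was higher (Gzmb), beside 17.4% of all genes tested. By edgeR, 0 of the 5 were called in CCl4 against control without CCl4 4 and CCl4 7. Gzmb (chr14:56258838-56262260, minus strand), a protease that triggers death of target cells, was at 0.0766, 0.481 and 2.17 CPM in CCl4_PTH livers, 0.242, 0.521 and 4.02 CPM in CCl4 livers and 0, 0.0577 and 0.2901 CPM in control livers. CCl4_PTH 2, CCl4 4 and CCl4 7 were high, and 5 of 6 livers of each injured group lay above every control. Gzmb gave a log2 fold change of 3.74 ± 0.95 (SE, adjusted p = 0.00333) in CCl4 against control, 2.102 (adjusted p = 0.064) without CCl4 4 and CCl4 7, and 2.89 ± 0.93 (SE, adjusted p = 0.027) in CCl4_PTH against control, lost without control 2, control 3, control 4 or CCl4_PTH 2. Without CCl4 4 or control 5 alone, CCl4 against control gave 2.89 and 4.48, and without CCl4_PTH 2 or control 5, CCl4_PTH against control gave 2.06 and 3.67. For Gzmb, CCl4_PTH against CCl4 gave -0.84 ± 0.797 (SE, adjusted p = 0.548), with the sign turned to 0.78 without CCl4 4 and CCl4 7.

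Gzma, another granzyme, was at 0, 0.1602 and 0.261 CPM in CCl4_PTH livers, 0.05096, 0.336 and 1.24 CPM in CCl4 livers and 0, 0 and 0.185 CPM in control livers. In all, 4 of the control and 2 of the CCl4_PTH libraries had 0 counts, and 4 of 6 CCl4 livers lay above every control. Its log2 fold change was 3.18 ± 1.102 (SE, adjusted p = 0.0233) in CCl4 against control, lost without CCl4 4 and 4.41 without control 1, 2.66 (adjusted p = 0.1) without CCl4 4 and CCl4 7, -1.83 ± 0.99 (SE, adjusted p = 0.242) in CCl4_PTH against CCl4 and 1.35 ± 1.09 (SE, adjusted p = 0.385) in CCl4_PTH against control. Fasl, the ligand of the death receptor Fas, was at 0, 0.197 and 0.341 CPM in CCl4_PTH livers, 0.0429, 0.277 and 1.67 CPM in CCl4 livers and 0, 0.0229 and 0.209 CPM in control livers. The highest CCl4 levels were again those of CCl4 4 and CCl4 7. Its log2 fold change was 2.92 ± 1.07 (SE, adjusted p = 0.0306) in CCl4 against control, lost without CCl4 4, CCl4 7, control 1, control 3, control 5 or control 8 (2.15 without CCl4 4, and 3.51 without control 2), and it was -1.54 ± 0.95 (SE, adjusted p = 0.318) in CCl4_PTH against CCl4 and 1.38 ± 1.05 (SE, adjusted p = 0.356) in CCl4_PTH against control. Fasl gave 1.204 (adjusted p = 0.433) in CCl4 against control without CCl4 4 and CCl4 7. The sign of Fasl in CCl4_PTH against CCl4 turned without CCl4 4 and CCl4 7, to 0.15.

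Prf1, the pore-forming protein that lets granzymes in, was not called. It was at 0.0252, 0.404 and 0.697 CPM in CCl4_PTH livers, 0.05096, 0.524 and 2.47 CPM in CCl4 livers and 0.174, 0.497 and 1.29 CPM in control livers. Of the CCl4 livers, 2 lay above every control and 2 below, and the ranges overlapped. Prf1 gave a log2 fold change of 0.66 ± 0.76 (SE, adjusted p = 0.498) in CCl4 against control, and -0.96 without CCl4 4 and CCl4 7, with neither past the threshold. It was -1.28 ± 0.76 (SE, adjusted p = 0.295) in CCl4_PTH against CCl4, with the sign turned to 0.33 without those libraries, and -0.62 ± 0.76 (SE, adjusted p = 0.591) in CCl4_PTH against control. Nkg7, a granule protein of cytotoxic cells, gave 2.502 ± 0.91 (SE, adjusted p = 0.0306) in CCl4 against control, lost without CCl4 4, CCl4 7, control 1, control 2, control 5 or control 8, and 0.53 (adjusted p = 0.669) without CCl4 4 and CCl4 7.

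Ifng and Gzmk did not pass the filter and were not tested. Ifng, the macrophage-activating cytokine, was at 0, 0.0234 and 0.151 CPM in CCl4_PTH livers, 0, 0.0474 and 1.02 CPM in CCl4 livers and 0, 0 and 0.0612 CPM in control livers. It was at 0 in 3 CCl4_PTH, 2 CCl4 and 4 control livers, and 33, 177 and 7 counts were found in CCl4_PTH, CCl4 and control livers. CCl4 4, at 1.02 CPM, was the highest. Gzmk, a further granzyme, was at 0, 0.0315 and 0.335 CPM in CCl4_PTH livers, 0, 0.171 and 1.72 CPM in CCl4 livers and 0, 0 and 0.0916 CPM in control livers, with 0 counts in 5 of 6 control livers.

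Promoter sequences of RefSeq (GRCm38.p6, 250 bases before to 50 after a start) were at hand for 33 of the 47 genes, in 43 windows. The letters TGTGGT, bound by RUNX factors, stood on either strand in 37.2% of the 43 windows and in 16.8% of all 32851 windows. TCACAC, read by T-box factors such as T-bet and Eomes, stood in 25.6% and 14.5%, and TGANTCA, read by AP-1, in 6.98% and 7.81%. Matches of different motifs did not overlap in the members' windows (0 cases). These shares are a description of letters, not of binding. The windows of 2 effectors that were higher in CCl4 livers, Gzmb and Nkg7, and of the NK receptor Ncr1, which was not called, are shown on the gene's own strand with all matches to the 3 motifs, on either strand, in capitals. They cover chr14:56262285-56262584 on the minus strand (Gzmb), chr7:43436888-43437187 on the plus strand (Nkg7) and chr7:4337465-4337764 on the plus strand (Ncr1).
Gzmb: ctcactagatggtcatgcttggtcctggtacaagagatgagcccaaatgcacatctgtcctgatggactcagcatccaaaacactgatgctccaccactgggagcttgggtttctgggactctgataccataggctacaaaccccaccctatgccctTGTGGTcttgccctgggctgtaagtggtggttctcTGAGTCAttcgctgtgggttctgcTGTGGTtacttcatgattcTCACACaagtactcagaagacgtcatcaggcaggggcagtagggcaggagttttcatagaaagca
Nkg7: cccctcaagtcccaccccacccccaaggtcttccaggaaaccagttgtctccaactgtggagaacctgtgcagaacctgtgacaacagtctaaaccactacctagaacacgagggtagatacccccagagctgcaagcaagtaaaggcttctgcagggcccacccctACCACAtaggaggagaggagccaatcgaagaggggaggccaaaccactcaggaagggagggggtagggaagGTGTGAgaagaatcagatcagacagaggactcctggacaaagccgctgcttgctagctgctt
Ncr1: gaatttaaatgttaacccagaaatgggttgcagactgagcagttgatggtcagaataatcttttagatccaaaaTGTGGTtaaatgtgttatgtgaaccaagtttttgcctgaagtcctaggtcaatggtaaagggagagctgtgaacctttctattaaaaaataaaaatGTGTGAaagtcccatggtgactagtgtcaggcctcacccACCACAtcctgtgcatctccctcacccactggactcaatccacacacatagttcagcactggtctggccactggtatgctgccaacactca
All 3 windows held a RUNX and a T-box match, and only that of Gzmb held an AP-1 match. The other effectors differed. Windows of Gzma and Prf1 held a RUNX match only, that of Gzmk held T-box matches only, and those of Fasl and Ifng held none of the 3 motifs.

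Of the NK cell receptors, Klrk1 (NKG2D), Klrd1 (CD94) and the shared IL-2 and IL-15 receptor chain Il2rb were higher in CCl4 than in control livers. These were 3 of 5, beside 26.3% of all genes tested, with log2 fold changes of 1.78, 2.43 and 1.65. All 3 were also called without CCl4 4 and CCl4 7, at 1.09, 2.02 and 1.03. In CCl4_PTH against control, Klrd1 gave 1.6002 ± 0.55 (SE, adjusted p = 0.0351) and Klrk1 1.05 ± 0.35 (SE, adjusted p = 0.0292). Each of these 2 calls was lost without any one of 7 libraries, among them CCl4_PTH 6, CCl4_PTH 8, control 1 and control 5 for both, control 2, control 8 and CCl4_PTH 3 for Klrd1, and control 3, control 4 and CCl4_PTH 2 for Klrk1. Without control 3, Klrd1 gave 3.097 in CCl4 against control and 2.27 in CCl4_PTH against control.

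Ncr1 (NKp46), found nearly only on NK cells and other innate lymphocytes, was at 0.0937, 0.466 and 0.681 CPM in CCl4_PTH livers, 0.0892, 0.395 and 0.678 CPM in CCl4 livers and 0, 0.179 and 0.2297 CPM in control livers. In all, 5 of 6 livers in each injured group lay above every control. Ncr1 gave a log2 fold change of 1.34 ± 0.56 (SE, adjusted p = 0.057) in CCl4 against control, called without CCl4 5 and in DESeq2, and 1.48 ± 0.56 (SE, adjusted p = 0.055) in CCl4_PTH against control, called without CCl4_PTH 1, in DESeq2 and in limma voom. For Ncr1, CCl4_PTH against CCl4 gave 0.15 ± 0.53 (SE, adjusted p = 0.898). Klrb1c (NK1.1), the classical NK marker of C57BL/6 mice, was at 0.296, 0.572 and 0.881 CPM in CCl4_PTH livers, 0.247, 0.422 and 0.645 CPM in CCl4 livers and 0.0919, 0.146 and 0.933 CPM in control livers. Control 2 stood above all CCl4 and CCl4_PTH livers, and the other 5 controls below the medians of both. Klrb1c gave a log2 fold change of 0.71 ± 0.51 (SE, adjusted p = 0.267) in CCl4 against control, 0.36 ± 0.49 (SE, adjusted p = 0.692) in CCl4_PTH against CCl4 and 1.07 ± 0.51 (SE, adjusted p = 0.124) in CCl4_PTH against control; without control 2, both differences from control were called. CCl4_PTH medians of Ncr1 and Klrb1c lay above the CCl4 medians, as they did for 4 other genes of the 47, Trbc1, Zap70, Foxp3 and Icos.

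Of the checkpoint and inducible co-stimulatory receptors, 5 of 7 were higher in CCl4 than in control livers, beside 26.3% of all genes tested. They were Pdcd1, Ctla4, Tigit, Havcr2 and Cd160. Without CCl4 4 and CCl4 7 the number was 3 of 7, Tigit and Cd160 being lost, beside the lower share of all genes given above for that fit. In CCl4_PTH against control livers, 2 of 7 were higher (Ctla4 and Havcr2), beside 17.4% of all genes tested. None was called in CCl4_PTH against CCl4 by edgeR, where all 7 log2 fold changes were below 0, with a median of -1.56. Of the 7, 5 were below 0 and 2 above without CCl4 4 and CCl4 7, with a median of -0.49. Havcr2 (TIM-3; chr11:46454935-46481255, plus strand), which macrophages and dendritic cells carry as well as exhausted T cells, was at 1.17, 1.58 and 2.45 CPM in CCl4_PTH livers, 1.86, 2.56 and 5.61 CPM in CCl4 livers and 0.1904, 0.391 and 0.8398 CPM in control livers. Neither injured group overlapped the controls, and 4 of 6 CCl4_PTH livers lay below every CCl4 liver. Havcr2 gave a log2 fold change of 2.96 ± 0.38 (SE, adjusted p = 5.51e-06) in CCl4 against control, 1.95 ± 0.37 (SE, adjusted p = 0.000776) in CCl4_PTH against control and -1.01 ± 0.35 (SE, adjusted p = 0.0633) in CCl4_PTH against CCl4. The last was called by DESeq2, by limma voom, under a stricter filter and without CCl4 1. It was -0.44 (adjusted p = 0.548) without CCl4 4 and CCl4 7. Macrophage and Kupffer cell markers moved with Havcr2, with 13 of 15 higher in CCl4 against control, and 4 lower and 1 higher in CCl4_PTH against CCl4, beside 26.3%, 4.95% and 7.1% of all genes tested. Of these markers, 12 were higher and 1 lower in CCl4 against control without CCl4 4 and CCl4 7, and 1 was lower and 0 higher in CCl4_PTH against CCl4. Their part in the Havcr2 result was not tested.

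Ctla4, the inhibitory counterpart of CD28, had no count in any control liver. It was at 0, 0.0889 and 0.187 CPM in CCl4_PTH livers and 0.0429, 0.1996 and 1.73 CPM in CCl4 livers, with CCl4 4 and CCl4 7 highest. Against the floor of 3 counts over the control group, its mean level was at least 77.9-fold higher in CCl4 (366 counts, adjusted p = 0.00071) and at least 11.7-fold higher in CCl4_PTH livers (66 counts, adjusted p = 0.0265). The CCl4_PTH call did not hold in limma voom or without controls 1 and 8. In the CCl4 mean, CCl4 4 and CCl4 7 held 1.73 and 1.35 CPM, and the other CCl4 livers 0.0429 to 0.246 CPM. The bound is not given without CCl4 4 and CCl4 7, where edgeR still called Ctla4 higher (adjusted p = 0.00354). Counts were found in 6 of 6 CCl4 and 5 of 6 CCl4_PTH livers. For Ctla4, CCl4_PTH against CCl4 gave -2.704 ± 0.95 (SE, adjusted p = 0.0802), called by DESeq2 and without CCl4 8, and -0.49 without CCl4 4 and CCl4 7.

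Pdcd1 (PD-1), the receptor of PD-L1, was at 0, 0.202 and 0.388 CPM in CCl4_PTH livers, 0.129, 0.458 and 2.33 CPM in CCl4 livers and 0, 0 and 0.162 CPM in control livers. In all, 5 control livers had 0 counts, and control 1 held all 14 control counts. Pdcd1 gave a log2 fold change of 4.65 ± 1.11 (SE, adjusted p = 0.00207) in CCl4 against control, with 4 of 6 CCl4 livers above every control, and 3.18 (adjusted p = 0.0343) without CCl4 4 and CCl4 7. Without CCl4 4 alone it was 4.04; without control 1 no control count remains, so no fold is given. It was 2.65 ± 1.09 (SE, adjusted p = 0.0792) in CCl4_PTH against control, past the threshold without control 1 or CCl4_PTH 7, in DESeq2 and in limma voom, and -1.998 ± 0.902 (SE, adjusted p = 0.159) in CCl4_PTH against CCl4 (-0.496 without CCl4 4 and CCl4 7). Tigit, which binds Pvr, was at 0.0378, 0.169 and 0.301 CPM in CCl4_PTH livers, 0.0429, 0.668 and 2.24 CPM in CCl4 livers and 0, 0.139 and 0.398 CPM in control livers. CCl4 4, CCl4 7 and CCl4 2 were highest, and CCl4_PTH and control ranges overlapped throughout. Tigit gave a log2 fold change of 2.35 ± 0.91 (SE, adjusted p = 0.0399) in CCl4 against control, lost without CCl4 2, CCl4 4, CCl4 7, control 1, control 2, control 3 or control 8, with 1.75 without CCl4 4. It was -2.23 ± 0.88 (SE, adjusted p = 0.105) in CCl4_PTH against CCl4, where DESeq2 called it lower, and 0.12 ± 0.901 (SE, adjusted p = 0.938) in CCl4_PTH against control. With CCl4 4 and CCl4 7 left out, Tigit gave 1.22 (adjusted p = 0.355) in CCl4 against control and -1.12 in CCl4_PTH against CCl4.

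Lag3, which binds MHC class II, was at 0.289, 0.448 and 0.703 CPM in CCl4_PTH livers, 0.293, 0.587 and 4.34 CPM in CCl4 livers and 0, 0.319 and 0.881 CPM in control livers. Only CCl4 4 and CCl4 7 lay above the highest control. Lag3 gave a log2 fold change of 2.02 ± 0.83 (SE, adjusted p = 0.0545) in CCl4 against control, just outside the threshold and inside it in DESeq2, in limma voom, and without control 1, CCl4 1, CCl4 5 or CCl4 8; without CCl4 4 and CCl4 7 it was 0.36. It was -1.56 ± 0.81 (SE, adjusted p = 0.224) in CCl4_PTH against CCl4, with the sign turned to 0.099 without those libraries, and 0.46 ± 0.82 (SE, adjusted p = 0.722) in CCl4_PTH against control. Cd160, a receptor of cytotoxic T and NK cells, was at 0.383, 0.548 and 0.891 CPM in CCl4_PTH livers, 0.676, 0.977 and 1.83 CPM in CCl4 livers and 0.313, 0.481 and 0.8704 CPM in control livers. The CCl4_PTH and control ranges overlapped almost fully, and 4 of 6 CCl4_PTH livers lay below every CCl4 liver. Cd160 gave a log2 fold change of 1.07 ± 0.32 (SE, adjusted p = 0.00945) in CCl4 against control, 0.69 (adjusted p = 0.114) without CCl4 4 and CCl4 7, -0.87 ± 0.31 (SE, adjusted p = 0.076) in CCl4_PTH against CCl4, where DESeq2 called it lower, and 0.204 ± 0.32 (SE, adjusted p = 0.676) in CCl4_PTH against control. Its exons overlap Pdzk1 on the other strand. Icos, the inducible co-stimulator, gave 0.91 ± 0.5003 (SE, adjusted p = 0.146) in CCl4 against control.

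**Figure D5:**
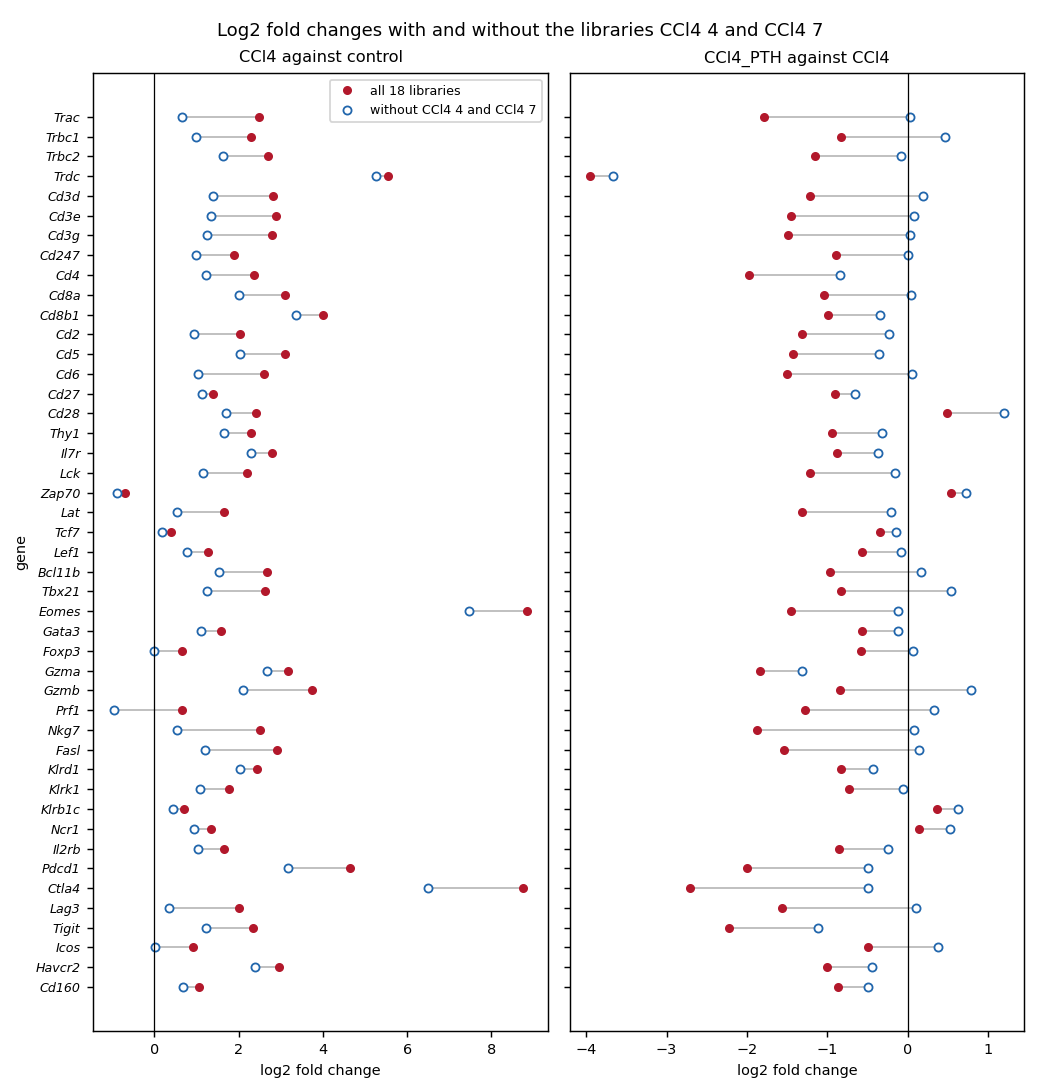
Log2 fold change (x axes) of the 45 tested genes (rows) with all 18 libraries (filled points) and without CCl4 4 and CCl4 7 (open points), in CCl4 against control and in CCl4_PTH against CCl4. In CCl4_PTH against CCl4 the median of the open points is -0.08, against -1.01 for the filled points, while Trdc stays near -4.

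Ratios of 2 genes within a library need no scaling and ask whether one transcript moved more than another, which is not a comparison of cell numbers. Of 15 exact permutation tests, two-sided, over 5 ratios and 3 pairs of groups (smallest p possible 0.00216), none passed Benjamini-Hochberg adjustment, and 2 had an unadjusted p under 0.05. The log2 ratio of Foxp3 to Cd3e averaged -1.27 ± 1.20 in CCl4 and 0.47 ± 1.0996 in control livers (SD, n = 6 each), a difference of -1.74 (exact permutation p = 0.0303, adjusted p = 0.227). The log2 ratio of Pdcd1 to Cd3e averaged -1.73 ± 0.65 in CCl4 and -4.60 ± 2.59 in control livers (SD, n = 6 each), a difference of 2.87 (exact permutation p = 0.0238, adjusted p = 0.227), with a pseudocount of 0.5 standing for most control libraries. For Cd8a to Cd4 the averages were 1.96 ± 0.85 in CCl4_PTH and 0.83 ± 1.05 in CCl4 livers (SD, n = 6 each), a difference of 1.13 (exact permutation p = 0.0671, adjusted p = 0.252). The ratios of Ncr1 and of Gzma to Cd3e gave adjusted p of 0.305 to 0.946.

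The partners of these receptors on other cells were followed in 5 lists. The shares of all genes tested that were higher and lower were 26.3% and 21.2% in CCl4 against control, 7.1% and 4.95% in CCl4_PTH against CCl4 and 17.4% and 10.3% in CCl4_PTH against control. Of the 11 ligands of checkpoint receptors, 7 were higher and 3 lower in CCl4 than in control livers, and 1 was higher and 3 were lower in CCl4_PTH than in CCl4 livers. These numbers were 5 and 1, and 1 and 1, without CCl4 4 and CCl4 7. Ceacam1, a reported ligand of TIM-3 that hepatocytes express, was at 59.1, 63.6 and 75.7 CPM in CCl4_PTH livers, 27.3, 47.2 and 54.2 CPM in CCl4 livers and 76.1, 90.5 and 98.8 CPM in control livers. The 3 groups did not overlap, and the log2 fold change was 0.54 ± 0.13 (SE, adjusted p = 0.0126) in CCl4_PTH against CCl4, -0.997 ± 0.13 (SE, adjusted p = 6.66e-06) in CCl4 against control and -0.46 ± 0.13 (SE, adjusted p = 0.0132) in CCl4_PTH against control. Pvr, the ligand of TIGIT, was at 6.004, 6.55 and 8.01 CPM in CCl4_PTH livers, 7.91, 12.3 and 19.3 CPM in CCl4 livers and 4.65, 5.84 and 7.53 CPM in control livers, with a log2 fold change of -0.88 ± 0.17 (SE, adjusted p = 0.00363) in CCl4_PTH against CCl4 and 1.11 ± 0.17 (SE, adjusted p = 3.38e-05) in CCl4 against control. Both genes remained called without CCl4 4 and CCl4 7, in both comparisons. Cd86, a ligand of CD28 and CTLA-4, gave -1.24 ± 0.33 (SE, adjusted p = 0.0194) in CCl4_PTH against CCl4, and -0.48 (adjusted p = 0.259) without CCl4 4 and CCl4 7. Icosl, the ligand of ICOS, gave 2.09 ± 0.36 (SE, adjusted p = 9.96e-05) in CCl4 against control. Cd274 (PD-L1), the fourth gene called in CCl4_PTH against CCl4 and named for that reason after its value was seen, was at 3.02, 4.79 and 6.21 CPM in CCl4_PTH livers, 3.67, 6.33 and 54.03 CPM in CCl4 livers and 0.868, 1.83 and 2.11 CPM in control livers; its log2 fold change was -1.81 ± 0.56 (SE, adjusted p = 0.0432), and -0.15 (adjusted p = 0.851) without CCl4 4 and CCl4 7.

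Of the 14 homing chemokines and receptors, 10 were higher and 1 lower in CCl4 than in control livers, and 2 were lower in CCl4_PTH than in CCl4 livers. They were 6 and 0, and 0, without CCl4 4 and CCl4 7. Cx3cr1, a chemokine receptor that monocytes also carry, gave a log2 fold change of 3.58 ± 0.36 (SE, adjusted p = 5.24e-07) in CCl4 against control. In CCl4_PTH against CCl4, Cxcl10, a chemokine for activated T cells, gave -2.15 ± 0.62 (SE, adjusted p = 0.0304); without CCl4 4 and CCl4 7 it was not called, at -0.59. Of 7 tested cytokine genes of lymphocyte survival and polarisation, 5 were higher and 1 lower in CCl4 than in control livers, and 1 and 1 without CCl4 4 and CCl4 7. Il7 gave 3.196 ± 0.64 (SE, adjusted p = 0.000411) and Il12b 3.98 ± 1.005 (SE, adjusted p = 0.00302). They gave 2.78 (adjusted p = 0.00405) and 2.64 (adjusted p = 0.0596) without CCl4 4 and CCl4 7. Il15ra, which presents IL-15 to NK and CD8 T cells, was the lower one, at 20.4, 25.6 and 30.2 CPM in CCl4_PTH livers, 18.1, 18.5 and 19.5 CPM in CCl4 livers and 35.7, 38.1 and 39.6 CPM in control livers, with no overlap between the 3 groups. It gave -1.02 ± 0.08 (SE, adjusted p = 2.17e-08) in CCl4 against control, 0.44 ± 0.08 (SE, adjusted p = 0.00192) in CCl4_PTH against CCl4 and -0.58 ± 0.08 (SE, adjusted p = 2.93e-05) in CCl4_PTH against control.

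Of 7 tested partners of NKG2D and Fas, 4 were higher in CCl4 than in control livers, led by the adaptor Tyrobp (2.55 ± 0.24), the NKG2D ligand Ulbp1 (1.94 ± 0.3005) and the adaptor Hcst (3.53 ± 0.74). Tyrobp, which myeloid cells share with NK cells, was lower in CCl4_PTH than in CCl4 livers, at -0.95 ± 0.23 (SE, adjusted p = 0.0121), and at -0.55 (adjusted p = 0.131) without CCl4 4 and CCl4 7. Of 32 other tested T and NK lineage genes, 22 were higher and 2 lower in CCl4 than in control livers, 13 higher and 1 lower in CCl4_PTH than in control livers, and 1 lower in CCl4_PTH than in CCl4 livers. With CCl4 4 and CCl4 7 left out, 12 were higher and 3 lower in CCl4 against control, 14 higher and 1 lower in CCl4_PTH against control, and 0 lower in CCl4_PTH against CCl4. The gene lower in CCl4_PTH against CCl4 with all libraries was Tnfrsf9 (4-1BB), a co-stimulatory receptor of activated T cells, at 0.171, 0.288 and 0.519 CPM in CCl4_PTH livers, 0.2598, 0.955 and 2.33 CPM in CCl4 livers and 0, 0 and 0 CPM in control livers. Every liver of both injured groups lay above the controls, which had 0 counts, and the log2 fold change was -1.79 ± 0.52 (SE, adjusted p = 0.0377) in CCl4_PTH against CCl4 and -1.03 (adjusted p = 0.324) without CCl4 4 and CCl4 7. Ptprc (CD45), carried by all leukocytes, gave 2.62 ± 0.31 (SE, adjusted p = 3.08e-06) in CCl4 against control and -0.85 ± 0.29 (SE, adjusted p = 0.0668) in CCl4_PTH against CCl4. Tox, a transcription factor of exhausted T cells, was among the genes lower in CCl4 than in control livers and was named after its value was seen, at -1.62 ± 0.32.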

How the data were processed

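Long RNA of 18 livers was read as 150-base pairs after ribosomal RNA removal, per the labels' protocols. Tools listed in the submitters' processing notes, without role or order, are cutadapt 4.2, Bowtie2 2.5.1, StringTie 2.1.5, HISAT2 2.2.1 and FastQC 0.11.9, with the build GRCm38. The authors deposited estimated counts by gene, all of them whole and unscaled, for 54752 genes; which tool counted them, on which annotation and with what strand setting, is not stated. GENCODE M21 gave coordinates for 54723 identifiers and did not hold 29. Ribosomal RNA loci took 30.6% to 55.8% of the counts of a library.

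Counts were rounded, which changed no value, filtered with filterByExpr (minimum count 10; 21840 genes kept) and fitted once for all 3 groups in edgeR 4.0.16 (R 4.3.3; TMM, robust quasi-likelihood F test, no block), with Benjamini-Hochberg adjustment over all genes tested and a threshold of 0.05. An SE is the size of the log2 fold change over the root of its F statistic. Single ratios were compared with exact permutation tests. The fit was tested on simulated counts. Alternatives used DESeq2 1.42.0, limma voom 3.58.1, other scalings and filters, 2 groups at a time, a replicate block, and libraries left out. The floor of 3 counts covers counting error only.

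The 47 genes, their roles and the lists of partners and markers were chosen with earlier results of these data known. Levels with all tests are given for 21 genes chosen by name and for members called in CCl4_PTH against CCl4; other members are given by counts, ranges and the smallest p. Some genes of the lists are counted but not reported here by name. The labels give each library as a separate sample of its group. Counts of any 2 libraries of a group differed by more than sampling noise, with a chi-square of at least 51.8 per gene over 45 pairs.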

Additional observations from a re-analysis of the deposited data

Results flagged for a closer look

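In 11 of 139 combinations of gene and group, a library stood far from the other 5 of its group. The measure was the gap to its nearest neighbour over the group's range. The cut flags about 1 in 20 groups of independent normal values. Low and skewed counts of genes that move together do not meet that condition, so the number is a description. Of the 11 combinations, 5 lay in CCl4_PTH livers, 1 in CCl4 livers and 5 in control livers. Cd28 was at 7.07 CPM in CCl4_PTH 1, against 1.05 CPM in the next CCl4_PTH liver. CCl4_PTH 2 was the high library for Cd8a at 3.46 CPM (next 1.15 CPM), Gzmb at 2.17 CPM (next 0.623 CPM) and Trbc2 at 1.66 CPM (next 0.777 CPM). Lat was low in CCl4_PTH 1, at 0.111 CPM (next 0.529 CPM). Trbc1 was high in CCl4 4, at 3.08 CPM (next 0.949 CPM).

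Among control livers, Klrb1c was at 0.933 CPM and Cd6 at 0.724 CPM in control 2 (next 0.209 CPM and 0.176 CPM), and Klrd1 was at 0.508 CPM in control 3 (next 0.174 CPM). Pdcd1, at 0.162 CPM in control 1, and Gzmk, at 0.0916 CPM in control 5, were the only libraries of their group with counts. CCl4 4 and CCl4 7 were not picked out together, since each has the other as its neighbour. Of the 36 genes called higher in CCl4 against control, 24 were called in every fit that left out 1 library, and 12 lost the call in at least 1.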

How the results depend on the processing

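The 36 of 45 genes called higher in CCl4 against control became 11 of 13 tested under a filter of 1 CPM in 6 libraries. That is 84.6% of the members tested there, beside 29.9% of all genes. The number was 18 without CCl4 4 and CCl4 7, and the other alternatives kept the count within 1.5 times. Genes called lower there (0) numbered 1, Zap70, in DESeq2, in limma voom, with only the 2 groups compared and without controls 1 and 8, and 0 to 1 when 1 library was left out. The 2 genes called lower in CCl4_PTH against CCl4 became 1 with library sizes only, without ribosomal RNA loci, with no filter, with only the 2 groups and without CCl4 4 and CCl4 7, 10 in DESeq2, 4 in limma voom and 1 to 5 when 1 library was left out. The 13 called higher in CCl4_PTH against control became 23 with library sizes only, 6 without controls 1 and 8 and 8 to 14 when 1 library was left out. Under the stricter filter, 7 of 13 members tested were higher there (53.8%, beside 20.4% of all genes). Scaled by library size alone, the median over all genes was 0.626, -0.135 and 0.512 in CCl4 against control, CCl4_PTH against CCl4 and CCl4_PTH against control; calls over all genes were then 11275 higher and 1061 lower, 476 and 621, and 9559 and 353, and 91.4%, 43.4% and 96.4% of calls were higher. In CCl4_PTH against CCl4, lower calls over all genes were 1798 in DESeq2, 1969 in limma voom, 709 with only the 2 groups and 264 (399 higher) without CCl4 4 and CCl4 7, and 934 to 2286 higher and 575 to 1568 lower when 1 library was left out. Replicate numbers are shared between groups but did not pair the samples (correlations of -0.363 to 0.155 between same-numbered livers); with the number as a replicate block, 0 members were lower in CCl4_PTH against CCl4 (42 genes higher and 42 lower over all), 5 were higher in CCl4_PTH against control (2501 and 842 over all), Tbx21 gave 0.0398 in CCl4_PTH against CCl4, Cd4 -0.30 in CCl4_PTH against control and the log2 ratio of Gzma to Cd3e -0.4701 in CCl4_PTH against control. Signs that turned belonged to values not called. Without CCl4 4 and CCl4 7, 17 of the 45 members turned in CCl4_PTH against CCl4: Trac, Trbc1, Cd3d, Cd3g, Cd247, Cd6, Bcl11b, Nkg7 and Icos (0.0020 to 0.4626), and, of the genes given in full, Cd3e (0.0788), Cd8a (0.0375), Tbx21 (0.53), Foxp3 (0.0642), Gzmb (0.78), Prf1 (0.33), Fasl (0.15) and Lag3 (0.10). The ratio of Foxp3 to Cd3e turned there too (-0.053), and in CCl4 against control Foxp3 (-0.0047) and Prf1 (-0.96) turned. Without controls 1 and 8, Tigit (-0.44) and Cd160 (-0.0755) turned in CCl4_PTH against control; Prf1 was -0.0529 in limma voom in CCl4 against control and Ncr1 -0.0258 with library sizes only in CCl4_PTH against CCl4. The ratio of Gzma to Cd3e in CCl4_PTH against control was -0.1903 with a pseudocount of 1 and spanned -0.3285 to 1.0688 when 1 library was left out; that of Cd8a to Cd4 in CCl4 against control was -0.2244 with a pseudocount of 0.1 and spanned -0.1981 to 0.9403; that of Ncr1 to Cd3e in CCl4_PTH against control spanned -0.3337 to 0.7874. Leaving out 1 library gave, in CCl4_PTH against control, Tcf7 -0.0489 to 0.0957, Tigit -0.1795 to 0.6077, Foxp3 -0.0313 to 0.2231 and Cd4 -0.0279 to 0.6423, and in CCl4_PTH against CCl4 Gzmb -1.6322 to 0.0172 and Ncr1 -0.0320 to 0.3857. The causes were not tested. Depth limits genes such as Ifng and Gzmk, with 7 and 6 counts over the 6 control livers.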

Other observations

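Variable gene segments of the T cell receptor, which were not among the 47 genes and were looked at after the data were seen, are used in combinations that differ between T cell clones. Of 128 alpha variable segments in the table, 1 to 24 were detected per CCl4_PTH liver (median 8.5), 3 to 32 per CCl4 liver (median 7.5) and 0 to 6 per control liver (median 1.5). CCl4 4, CCl4 7 and CCl4_PTH 2 had the most, with 32, 26 and 24. Of 35 beta segments, 2 to 12, 2 to 15 and 1 to 3 were detected in CCl4_PTH, CCl4 and control livers, with 15 in CCl4 4, 13 in CCl4 7 and 12 in CCl4_PTH 2. The segments' counts ran up to 121, 277 and 17 (alpha) and 139, 285 and 20 (beta) per library in the 3 groups. These numbers depend on the reads available and give no count of clones.

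Immunoglobulin segments stood in another order. Of 185 heavy chain variable segments, 50 to 79 were detected per CCl4_PTH liver (median 69.5), 52 to 78 per CCl4 liver (median 55) and 11 to 33 per control liver (median 21.5), and the medians of their summed level were 20.01, 11.9 and 2.48 CPM. Kappa segments (160 in the table) gave medians of 62.5, 47 and 18 segments and of 21.02, 14.6 and 2.72 CPM in CCl4_PTH, CCl4 and control livers. Gamma variable segments (7) and delta variable segments (6) had at most 47 and 29 counts in any library. The median count of the delta variable segments was 2.5 in CCl4_PTH, 2.5 in CCl4 and 0 in control livers.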
